A study of Mus musculus with 6 samples.

Results

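The matrix metalloproteases (MMPs), the ADAM and ADAMTS proteases and their TIMP inhibitors were compared between SLK-knockout and SLK wild-type cells. The members were all genes measured by a probe set with exactly 1 gene symbol, where that symbol was Timp1 to Timp4 or began with Mmp, Adam or Adamts directly followed by a digit. This gave 77 of the 22180 genes on the arrays, namely 22 MMPs, 33 ADAMs, 18 ADAMTSs and 4 TIMPs. The arrays carried 83 probe sets for them, and each gene is represented by its brightest probe set, judged by the mean of the 6 arrays.

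The samples were untreated NeuNDL-transformed mouse cells in culture, NeuNDL being an activated form of the receptor tyrosine kinase Neu (ErbB2), and were grown with serum and a mammary epithelial supplement. Both groups carried NeuNDL. There were 3 arrays from cells wild-type for SLK, a Ste20-like kinase with known roles in migration and focal adhesion turnover, and 3 from SLK-knockout cells. The series speaks of lines sampled at passages 9, 19 and 29, but no sample label names a passage, a clone or the way SLK was removed. Each p-value is thus measured against the spread among these arrays, which may be technical.

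MMPs are zinc-dependent endopeptidases that cut collagens, proteoglycans and other matrix proteins, and are made as inactive precursors. ADAMs are mostly membrane-anchored and release the outer parts of growth factors, receptors and adhesion proteins, while many family members lack protease activity or are known from the male germline. ADAMTSs are secreted, bind the matrix and cut proteoglycans such as versican or process procollagens. TIMPs block the active sites of these enzymes, and in mammary tissue the balance of the families is known for its part in branching and in the remodelling after lactation.

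Slk itself had a log2 signal of 8.28 ± 0.07 (SD, n = 3) in wild-type and 7.18 ± 0.03 (SD, n = 3) in knockout cells (limma, adjusted p = 0.0021). The labels do not say whether its probes read the deleted part. The arrays correlated with each other at Pearson's r of 0.990 to 0.994 across probe sets, with medians between 3.93 and 3.97. As a check of the cell type, the luminal keratins Krt8 and Krt18 were bright in both groups (10.3 and 10.5 in wild-type cells, 10.5 and 10.6 in knockout cells). The basal keratin Krt14 was bright too, at 8.38 in wild-type and 7.72 in knockout cells. The luminal markers were split in direction. Krt8 (log2 fold change 0.15), Krt18 (0.14) and Krt19 (0.08) had knockout arrays wholly above wild-type. Cdh1 (-0.43), Epcam (-0.35), Esr1 (-0.22) and Gata3 (-0.20) had them wholly below, and Elf5 overlapped. That made 3 above and 4 below of 8, against 8.79% and 8.1% of all genes. Krt19, Elf5 and Esr1 were dim. The mean log2 level of 10 fibroblast markers was 5.48 to 5.53 on wild-type and 5.43 to 5.48 on knockout arrays. This list was split too. Knockout arrays lay wholly above wild-type for 3, Dcn (0.43), Postn (0.37) and Pdgfra (0.10). They lay wholly below for 4, Pdgfrb (-0.67), Col1a1 (-0.33), Col1a2 (-0.19) and Col3a1 (-0.19), and of the 10 only Pdgfrb was called, as lower. The mean log2 level of 9 leukocyte markers was 3.79 to 3.90 on wild-type and 3.82 to 4.04 on knockout arrays, with none called. That of 6 endothelial markers was 3.53 to 3.61 and 3.49 to 3.59, with none called. Of the leukocyte markers, 1 had knockout arrays wholly above wild-type (Tyrobp, 0.29) and none wholly below. Of the endothelial markers, none had them wholly above and 2 wholly below (Kdr, -0.32, and Tek, -0.22). The 8 luminal markers averaged 6.98 to 7.003 on wild-type and 6.86 to 6.92 on knockout arrays, with 1 called lower. The 5 basal markers averaged 5.52 to 5.63 and 5.34 to 5.44, with 1 called lower, Krt14 (-0.66, limma adjusted p = 0.0096). Knockout arrays lay wholly below wild-type for 2 of the 5, Krt14 and Acta2 (-0.47), while Trp63, Myh11 and Oxtr overlapped. For all of these lists, the share over all genes was 0.325% called higher and 0.113% called lower. For separated arrays it was 8.79% above and 8.1% below. The part of any shift in cell makeup in the results was not tested, and fewer cells of a type cannot be told apart from less RNA per cell.

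Of the 77 members, 2 rose in knockout cells and none fell. The inhibitor gene Timp3 rose 1.87-fold and the protease gene Adamts8 rose 1.72-fold. Calls are from limma with Benjamini-Hochberg adjustment over all 22180 genes at 0.05, which called 0.437% of all genes, 0.325% higher and 0.113% lower. Without adjustment, 18 of the 77 had p under 0.05, against 10.2% of all genes. The 3 knockout arrays lay wholly above the 3 wild-type arrays for 16 members and wholly below them for 4, against 8.79% and 8.1% of all genes. The median log2 fold change of the members was 0.03, against 0.0038 over all genes. Signals were often low: 52 of the 77 members had a mean below that of the median gene (4.39), where array values compress differences and a low value does not show whether a gene was off.

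**Figure D1:**
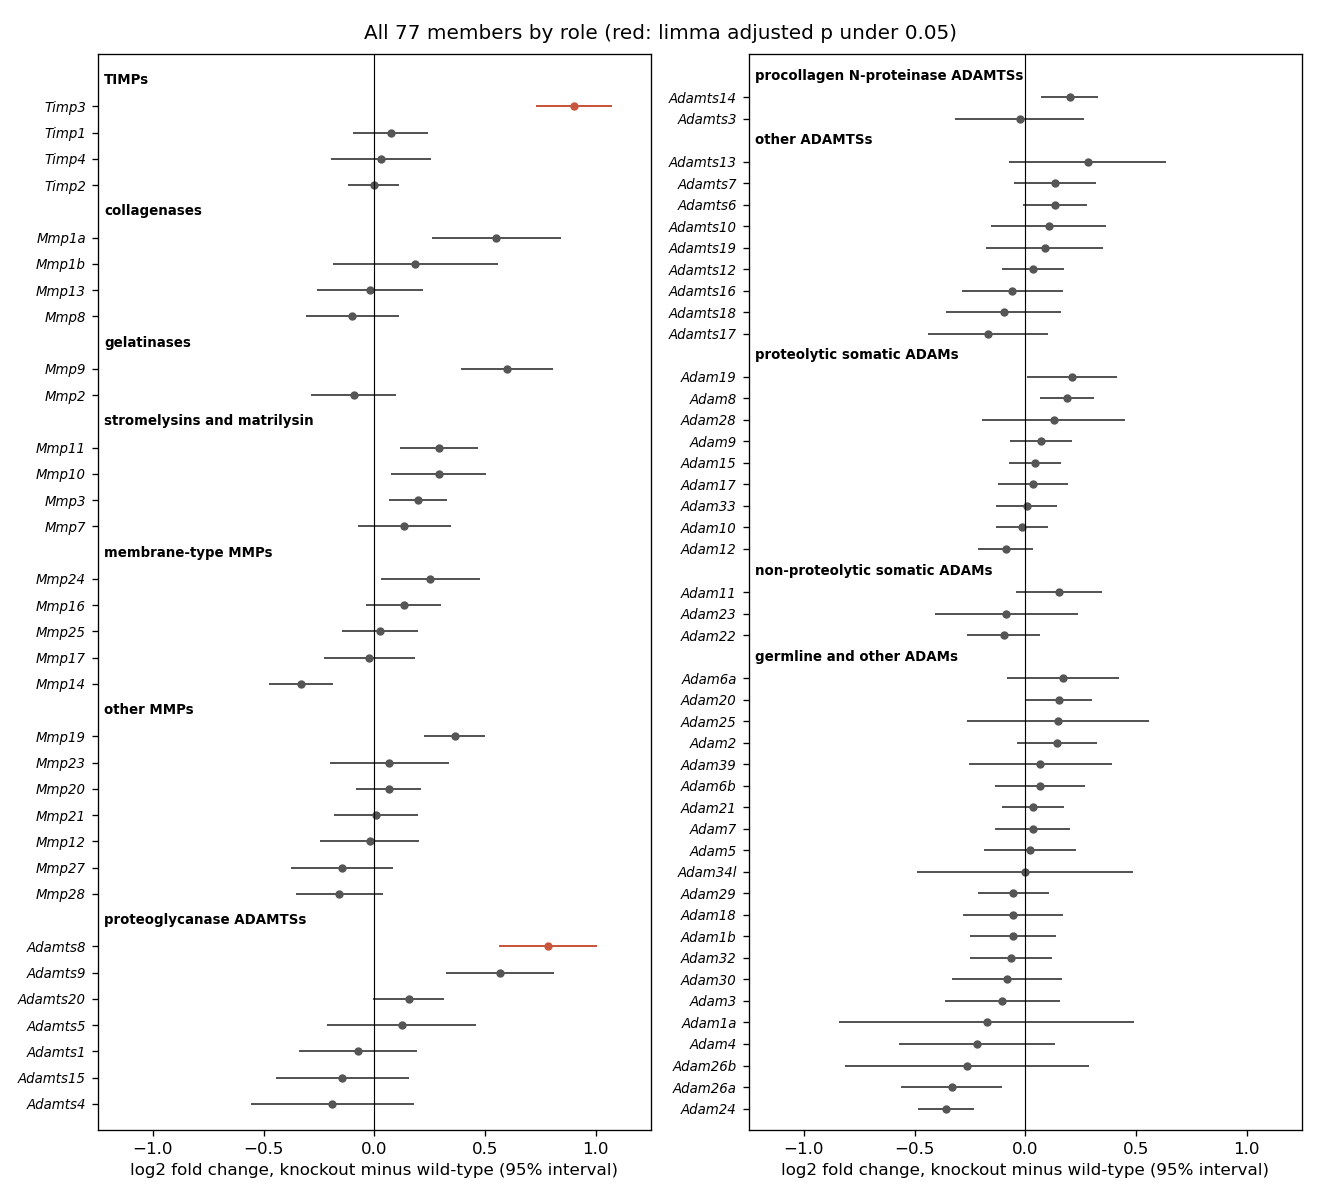
Log2 fold change (x axis, knockout minus wild-type) of each of the 77 members, grouped by role, with points for the estimate and lines for limma's 95% interval. Timp3 (0.90) and Adamts8 (0.78), in red, passed the adjusted threshold, while Mmp9 (0.60), Adamts9 (0.57) and Mmp1a (0.55) lie next to them without passing it.

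Among the inhibitors, Timp3 rose and the other 3 did not pass the test. Timp3 encodes the TIMP that stays bound to the extracellular matrix and is known to block ADAMs and ADAMTSs as well as MMPs. On wild-type arrays 1 to 3 the Timp3 log2 signal was 5.020, 4.912 and 5.002, and on knockout arrays 1 to 3 it was 5.764, 5.961 and 5.920. Every knockout array was above every wild-type array, and the gap between the groups was several times the spread within either. The log2 fold change was 0.90 (SE 0.07, 95% interval 0.74 to 1.07, limma adjusted p = 0.0072). With 1 array left out it ranged from 0.86 to 0.96, and the call was lost without wild-type replicate 3 (adjusted p = 0.054) or knockout replicate 3 (adjusted p = 0.055).

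Timp3 lies within the synapsin gene Syn3 in the RefSeq annotation, and Syn3 had a log2 fold change of 0.09 (SE 0.08, limma adjusted p = 0.79). The RefSeq promoter window of Timp3, from 250 bases before to 50 after the start (GRCm38.p6, chr10:86300162-86300461, plus strand), is shown because Timp3 was the member with the smallest p. Capitals mark the letters GGGCGG on either strand, the GC box bound by Sp-family factors.
Timp3: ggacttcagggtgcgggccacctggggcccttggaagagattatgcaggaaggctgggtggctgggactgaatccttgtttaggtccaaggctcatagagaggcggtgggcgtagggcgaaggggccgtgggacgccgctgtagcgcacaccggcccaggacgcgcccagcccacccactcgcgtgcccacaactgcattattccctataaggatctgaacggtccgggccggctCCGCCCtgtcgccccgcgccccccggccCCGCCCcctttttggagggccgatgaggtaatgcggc
The window held 2 such matches close to the start. GGGCGG was present in 3 of 4 TIMP windows and in 46.5% of all windows of that length. No match to TATAAA or TGACTCA was found in the TIMP windows.

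Timp1 and Timp2, which encode widely expressed inhibitors of MMPs, were bright in both groups. Timp1 gave 9.90, 9.92 and 9.82 on wild-type and 10.04, 9.84 and 9.99 on knockout arrays. These values overlapped between the groups, with a log2 fold change of 0.07 (95% interval -0.09 to 0.24). Timp2 was between 10.97 and 11.01 on all 6 arrays, and its interval of -0.11 to 0.11 leaves room only for differences smaller than that of Timp3. Timp4, dim at 2.45 to 2.72 on the 6 arrays, had an interval of -0.19 to 0.25.

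**Figure D2:**
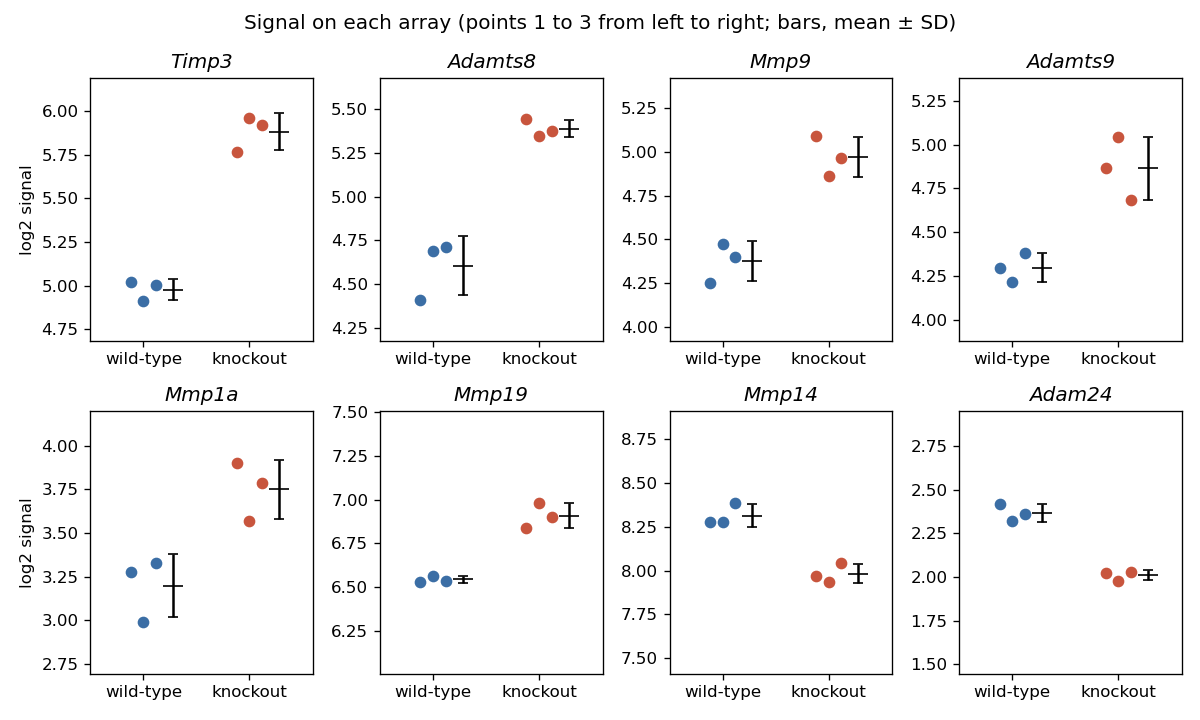
Log2 signal (y axis, each panel spanning 1.5 log2 units) of 8 members on the 3 wild-type (blue) and 3 knockout (red) arrays, with black bars for mean ± SD (n = 3). Knockout arrays lie wholly above wild-type arrays for Timp3, Adamts8, Mmp9, Adamts9, Mmp1a and Mmp19, and wholly below them for Mmp14 and Adam24, and of these 8 only Timp3 and Adamts8 passed the adjusted threshold.

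The ADAMTS enzymes that cut proteoglycans gave the second call. Of 7 measured members 1 rose and none fell, against 0.325% and 0.113% of all genes, with a median log2 fold change of 0.12. For 3 of the 7 the knockout arrays lay wholly above wild-type, against 8.79% of all genes. Adamts8, a member of this subgroup known for an anti-angiogenic activity, had signals of 4.41, 4.69 and 4.72 on wild-type and 5.44, 5.35 and 5.38 on knockout arrays. All 3 knockout values exceeded the highest wild-type value, and wild-type array 1 was the lowest of the 6. The log2 fold change was 0.78 (SE 0.09, 95% interval 0.57 to 1.00, limma adjusted p = 0.029).

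A second, dimmer Adamts8 probe set did not show this difference. It averaged 3.95 in wild-type and 4.03 in knockout cells, with a log2 fold change of 0.08 (SE 0.10). The mean of both probe sets gave a log2 fold change of 0.43 (limma adjusted p = 0.036). With every probe set on the arrays tested by itself, the brighter one did not pass (limma adjusted p = 0.12). Left-out arrays gave values of 0.69 to 0.84, and the call held without wild-type replicate 1 (adjusted p = 0.043) but was lost without any of the other 5 arrays: wild-type replicate 2 or 3 or knockout replicate 1, 2 or 3, with adjusted p of 0.088 to 0.14. The neighbouring gene on chromosome 9, Adamts15, also a proteoglycanase, had a log2 fold change of -0.14 (SE 0.12) with overlapping arrays.

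Adamts9, another proteoglycanase, was the next member of this subgroup. It gave 4.29, 4.21 and 4.38 on wild-type and 4.87, 5.05 and 4.68 on knockout arrays, without overlap. Its log2 fold change of 0.57 (SE 0.10) did not pass over all genes (limma adjusted p = 0.097). Adamts20 had 0.15 (SE 0.06), also without overlap but dim, at 2.87 to 3.18.

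Adamts1, Adamts4 and Adamts5, the versican- and aggrecan-cleaving enzymes studied most, had overlapping groups. Their log2 fold changes were -0.07 (SE 0.11) for Adamts1, -0.19 (SE 0.15) for Adamts4 and 0.12 (SE 0.14) for Adamts5. Adamts1 had 6.61, 6.39 and 6.42 on wild-type and 6.57, 6.42 and 6.20 on knockout arrays. Knockout array 3 was the lowest, and the 95% interval of the difference ran from -0.34 to 0.19.

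None of the other ADAMTSs passed the test, as did only 0.437% of all genes. Among the procollagen N-proteinases, which trim the amino-terminal propeptides of fibrillar collagens, Adamts14 had knockout arrays at 4.73 to 4.79 above wild-type arrays at 4.499 to 4.604 (log2 fold change 0.20, SE 0.05, limma adjusted p = 0.25). Its second probe set gave -0.15 (SE 0.08), the opposite sign. Adamts3 had a log2 fold change of -0.03 (SE 0.12), and Adamts2 was not analysed here. In the remaining group of 9, which includes Adamts7 and Adamts12, known to cut cartilage oligomeric matrix protein, and the von Willebrand factor protease gene Adamts13, values ran from -0.17 to 0.28. Only Adamts6 in that group had separated arrays, with 6.38 to 6.47 in wild-type and 6.502 to 6.632 in knockout cells. The 3 with the smallest p had log2 fold changes of 0.13 for Adamts6 (SE 0.06), 0.28 for Adamts13 (SE 0.15) and 0.13 for Adamts7 (SE 0.08), and the bright Adamts12 had 0.04 (SE 0.06).

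None of the 22 MMPs passed the test in either direction, against 0.437% of all genes. An unadjusted limma p under 0.05 was found for 8 of them, against 10.2% of all genes. Knockout arrays lay wholly above wild-type arrays for 7 of the 22 and wholly below for 1, against 8.79% and 8.1% of all genes. The median log2 fold change of the 22 was 0.07.

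The gelatinases cut denatured collagen and the type IV collagen of basement membranes. Mmp9 had 4.25, 4.48 and 4.40 on wild-type and 5.09, 4.86 and 4.97 on knockout arrays. The groups did not overlap, and the log2 fold change was 0.60 (SE 0.08, 95% interval 0.40 to 0.80), but the limma adjusted p of 0.054 missed the threshold. The other gelatinase gene, Mmp2, overlapped between the groups, with 4.23, 4.40 and 4.14 on wild-type and 4.22, 4.09 and 4.18 on knockout arrays. Its log2 fold change was -0.09 (SE 0.08).

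Mmp14 encodes a membrane-anchored collagenase that is known to activate the Mmp2 product at the cell surface, and had the lowest log2 fold change of the MMPs. Its signals were 8.28, 8.28 and 8.39 on wild-type and 7.97, 7.93 and 8.04 on knockout arrays. All knockout arrays were below all wild-type arrays, with a log2 fold change of -0.33 (SE 0.06, limma adjusted p = 0.097). Among the other membrane-type genes Mmp24 had 0.25 (SE 0.09) with separated arrays, Mmp16 had 0.13 (SE 0.07), and the overlapping Mmp17 and Mmp25 had -0.02 (SE 0.08) and 0.03 (SE 0.07). Mmp15 was not analysed here.

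Mmp19, a secreted MMP that cuts basement membrane components, came close to the threshold. It gave 6.53, 6.56 and 6.54 on wild-type and 6.84, 6.98 and 6.90 on knockout arrays, with no overlap. Its log2 fold change was 0.36 (SE 0.06, limma adjusted p = 0.066). The others in its group had overlapping arrays, including Mmp28 at -0.16 (SE 0.08), Mmp27 at -0.15 (SE 0.09) and the macrophage elastase gene Mmp12 at -0.02 (SE 0.09).

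The stromelysins cut proteoglycans, laminin and fibronectin and can activate other MMPs. With matrilysin, Mmp7, they made a group of 4 in which all 4 means were higher in knockout cells, as for 11429 of all 22180 genes. None of the 4 passed the test (median log2 fold change 0.24). Knockout arrays lay wholly above wild-type for 3 of them, against 8.79% of all genes. Mmp3 had 6.39, 6.38 and 6.44 on wild-type and 6.58, 6.56 and 6.66 on knockout arrays, a small shift of 0.20 (SE 0.05) without overlap. Mmp10 had 4.34, 4.66 and 4.44 on wild-type and 4.73, 4.81 and 4.78 on knockout arrays, which also did not overlap (0.29, SE 0.09). Mmp11 had 5.59, 5.57 and 5.73 on wild-type and 5.83, 5.94 and 5.999 on knockout arrays, with a log2 fold change of 0.29 (SE 0.07), and its second probe set gave 0.15 (SE 0.07). The limma adjusted p was 0.26 for Mmp3, 0.33 for Mmp10 and 0.22 for Mmp11, while Mmp7 overlapped at 0.14 (SE 0.09).

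Among the collagenases, which open the triple helix of fibrillar collagens, Mmp1a had the highest log2 fold change. Its signals were dim, at 3.28, 2.99 and 3.33 on wild-type and 3.90, 3.57 and 3.78 on knockout arrays, without overlap. The log2 fold change of 0.55 (SE 0.12) had a limma adjusted p of 0.17. Its relative Mmp1b, whose probes could read some of the same RNA, had 0.18 (SE 0.15) with overlapping arrays. Mmp13, the main interstitial collagenase of the mouse, was at 2.997 to 3.340 on wild-type and 3.07 to 3.24 on knockout arrays, with a 95% interval of -0.25 to 0.22. Mmp8, the neutrophil collagenase, had -0.10 (SE 0.09).

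In RefSeq, 10 of the MMP genes stand next to each other on chromosome 9, with no other coding gene starting between them, in the order Mmp13, Mmp12, Mmp1b, Mmp3, Mmp1a, Mmp10, Mmp8, Mmp27, Mmp20 and Mmp7. This grouping was looked at after the values were seen. Mmp3, Mmp1a and Mmp10, whose knockout arrays lay wholly above wild-type, are consecutive in that order, and the other 7 had overlapping arrays. Over all genes, knockout arrays lay wholly above wild-type for 8.79% and wholly below for 8.1%. None of the 10 passed the test.

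**Figure D3:**
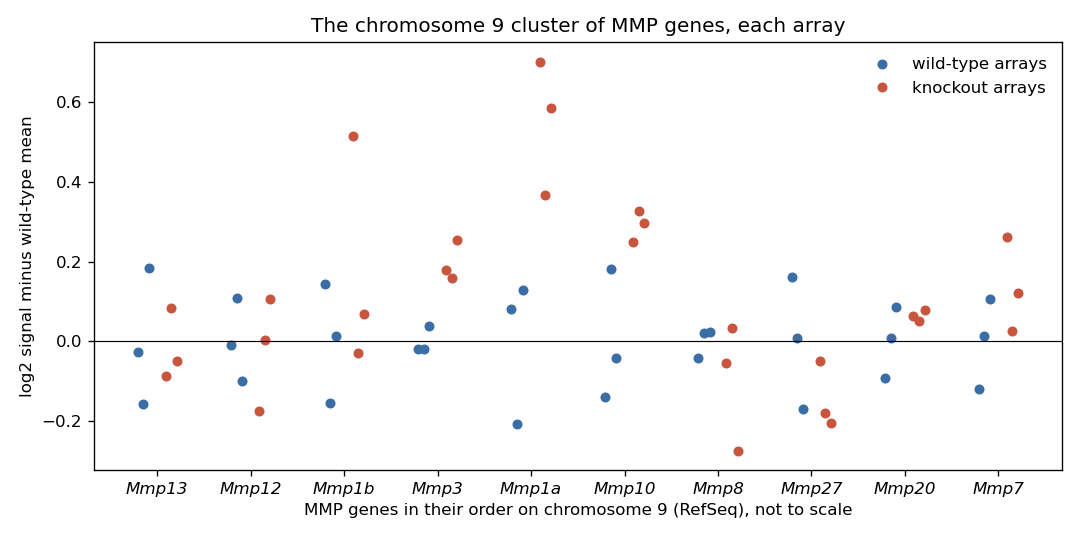
Log2 signal on each array minus the gene's wild-type mean (y axis) for the 10 MMP genes of the chromosome 9 cluster in RefSeq order (x axis, not to scale), with 3 wild-type points in blue and 3 knockout points in red per gene. The red points clear the blue ones for Mmp3, Mmp1a and Mmp10 and overlap with them for the other 7 genes.

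The promoter windows of these 3 neighbours are shown because they are consecutive, had separated arrays and share 2 short motifs. They were picked after their values were seen, and none of the 3 passed the test. They are the RefSeq windows of GRCm38.p6 at chr9:7445572-7445871, chr9:7463891-7464190 and chr9:7502092-7502391, all on the plus strand. Capitals mark TGACTCA on either strand (read here as TGAGTCA), the element bound by AP-1, the Fos and Jun dimer, and the TATA box letters TATAAA.
Mmp3: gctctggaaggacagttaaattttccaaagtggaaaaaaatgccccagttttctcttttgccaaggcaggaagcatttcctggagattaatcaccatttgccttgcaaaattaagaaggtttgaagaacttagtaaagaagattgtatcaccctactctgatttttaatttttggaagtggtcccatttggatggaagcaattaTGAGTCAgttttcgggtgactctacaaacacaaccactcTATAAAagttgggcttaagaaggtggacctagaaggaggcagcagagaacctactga
Mmp1a: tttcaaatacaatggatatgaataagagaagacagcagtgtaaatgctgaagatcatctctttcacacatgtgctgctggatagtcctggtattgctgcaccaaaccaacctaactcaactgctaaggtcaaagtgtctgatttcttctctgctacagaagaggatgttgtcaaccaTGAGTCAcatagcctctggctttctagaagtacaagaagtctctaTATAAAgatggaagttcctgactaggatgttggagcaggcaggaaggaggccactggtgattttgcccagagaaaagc
Mmp10: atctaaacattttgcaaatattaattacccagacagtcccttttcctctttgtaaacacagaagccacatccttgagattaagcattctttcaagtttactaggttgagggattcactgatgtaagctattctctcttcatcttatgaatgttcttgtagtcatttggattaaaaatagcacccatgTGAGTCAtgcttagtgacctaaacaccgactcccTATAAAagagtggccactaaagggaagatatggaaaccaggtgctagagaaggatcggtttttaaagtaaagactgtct
Each window held both motifs once. TGACTCA began 46 bases before the start in Mmp3, 73 before in Mmp1a and 63 before in Mmp10, and TATAAA began 7, 28 and 29 bases before it. The motifs do not overlap each other.

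These letters were not particular to the 3 neighbours. The 10 genes of the cluster had 12 windows, of which 7 held TGACTCA and 9 held TATAAA, against 4.78% and 12.3% of all 20611 windows of genes on the arrays. Mmp13, Mmp12, Mmp1b and Mmp7 also had a window with TGACTCA, and their log2 fold changes were -0.02, -0.02, 0.18 and 0.14. None of the cluster's windows held GGGCGG, which was found in 46.5% of all windows. RefSeq windows were matched for 47 of the 77 members, and a match describes letters only.

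Transcripts of the AP-1 subunits did not pass the test in either direction (6 measured), against 0.437% of all genes that did. The 3 with the smallest p had log2 fold changes of 0.30 for Jun (SE 0.07, limma adjusted p = 0.21), with knockout above wild-type on all arrays, -0.11 for Junb (SE 0.09) and 0.06 for Jund (SE 0.05).

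None of the 33 ADAMs passed the test, and 5 had an unadjusted limma p under 0.05, against 0.437% and 10.2% of all genes. Knockout arrays lay wholly above wild-type for 3 and wholly below for 3, which is near the 8.79% and 8.1% of all genes. The median log2 fold change was 0.0056.

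Adam10 and Adam17 encode the main sheddases of Notch, of the ErbB ligands and of tumour necrosis factor. Adam10 had 9.93, 9.98 and 9.92 on wild-type and 9.95, 9.91 and 9.93 on knockout arrays, and Adam17 had 7.35, 7.35 and 7.27 and then 7.34, 7.27 and 7.45. The groups overlapped for both genes. The 95% interval of the log2 difference was -0.13 to 0.10 for Adam10 and -0.12 to 0.19 for Adam17.

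Of the 9 proteolytic somatic ADAMs, Adam8, an enzyme known from leukocytes and from breast tumour cells, had separated arrays at 7.92, 7.94 and 7.99 in wild-type and 8.12, 8.17 and 8.13 in knockout cells. The shift of 0.19 (SE 0.05) had a limma adjusted p of 0.25. Adam19, a sheddase of neuregulins, had 0.21 (SE 0.08), with knockout arrays at 4.10 to 4.37 and wild-type arrays at 3.93 to 4.03, and its second, dimmer probe set gave -0.04 (SE 0.14). Adam12, which is expressed in mesenchyme and in many breast tumours, was bright, with wild-type arrays at 9.95 to 10.02 just above knockout arrays at 9.87 to 9.93 (-0.09, SE 0.05). Adam9, Adam15, Adam28 and Adam33 overlapped, with values of 0.0056 to 0.13.

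Adam11, Adam22 and Adam23, which lack protease activity and are known as neuronal adhesion and ligand-binding proteins, had overlapping arrays. Their log2 fold changes were 0.15 (SE 0.08), -0.10 (SE 0.07) and -0.09 (SE 0.13). All 3 were below the median gene.

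The remaining 21 ADAMs, known mostly from testis and sperm, were all below the median gene, with a median mean signal of 2.19. None passed the test, against 0.437% of all genes. Adam24 was the furthest from 0, with 2.42, 2.32 and 2.36 on wild-type and 2.02, 1.98 and 2.03 on knockout arrays (-0.36, SE 0.05, limma adjusted p = 0.055). The groups did not overlap, at a signal well below that of the median gene. Adam26a had 1.42, 1.72 and 1.43 and then 1.26, 1.14 and 1.18 (-0.33, SE 0.09, limma adjusted p = 0.29), and Adam20 had 0.15 (SE 0.06) with separated arrays. Adam24, Adam26a and Adam20 lie on chromosome 8 among related ADAM genes, and probes for such copies could read each other's RNA.

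Genes that act on these proteases were counted from lists. In the list of surface regulators 1 of 15 measured genes rose and none fell, against 0.325% and 0.113% of all genes. Tspan17, a tetraspanin that associates with ADAM10, was at 4.92 ± 0.13 in wild-type and 5.66 ± 0.13 in knockout cells (SD, n = 3 each), 1.67-fold higher (limma adjusted p = 0.038). The Tspan17 call was lost whichever array was left out (adjusted p 0.080 to 0.16). Reck, a membrane-anchored inhibitor of MMPs, had -0.29 (SE 0.06, limma adjusted p = 0.18), and Cd63, a tetraspanin that binds TIMP-family inhibitors, had -0.15 (SE 0.05).

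The proprotein convertases and the plasminogen system, which activate MMP precursors, had no call among 9 measured genes. None of the 9 had an unadjusted limma p under 0.05. Over all genes these shares were 0.437% and 10.2%. The smallest p values belonged to genes with log2 fold changes of -0.09 for Serpinb2 (SE 0.05), 0.07 for the urokinase receptor gene Plaur (SE 0.05) and 0.23 for Plg (SE 0.15). Of 14 related metzincins and ADAMTS-like genes none passed, against the same 0.437% of all genes. Tll1, an astacin protease that processes procollagen, went from 4.82 ± 0.15 to 5.38 ± 0.14 (SD, n = 3 each), a log2 difference of 0.56 (limma adjusted p = 0.11). Adamtsl3 had 0.16 (SE 0.05) and Papln 0.28 (SE 0.12).

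Among 25 measured genes of membrane proteins known to be shed by ADAM10 or ADAM17, 1 rose and 1 fell, against 0.325% and 0.113% of all genes. L1cam, which encodes a neural-type adhesion protein, was at 4.74 ± 0.09 in wild-type and 5.81 ± 0.10 in knockout cells (SD, n = 3 each). It was 2.10-fold higher (limma adjusted p = 0.0055), and stayed past the threshold without any single array (adjusted p 0.022 to 0.048). Over all 16 alternative settings L1cam passed in 15, with a highest limma adjusted p of 0.070. Cdh1, the epithelial cadherin gene, was 1.34-fold lower (limma adjusted p = 0.022), a call lost whichever array was left out (adjusted p 0.098 to 0.13). The mean of its probe sets gave Cdh1 a log2 fold change of -0.27 (limma adjusted p = 0.45). The ErbB ligand gene Ereg had 0.32 (SE 0.07, limma adjusted p = 0.16). The other ErbB ligand genes of the list went both ways. Epgn (-0.30) had knockout arrays wholly below wild-type, Nrg1 (0.30) and Tgfa (0.22) wholly above, and Hbegf, Btc and Egf overlapped.

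In the list of matrix substrates 1 of 19 measured genes rose and none fell, against the same 0.325% and 0.113%. Col4a1, a chain of the basement membrane collagen that gelatinases cut, went from 6.61 ± 0.03 to 7.02 ± 0.02 (SD, n = 3 each), 1.33-fold higher (limma adjusted p = 0.029), and lost the call whichever array was left out (adjusted p 0.10 to 0.14). Its partner chain Col4a2 had 0.25 (SE 0.05, limma adjusted p = 0.13), and the proteoglycan decorin gene Dcn had 0.43 (SE 0.08, limma adjusted p = 0.10). Knockout arrays lay wholly above wild-type for 9 of the 19 and wholly below for 4, against 8.79% and 8.1% of all genes. The 4 below were the fibrillar collagen genes Col1a1 (-0.33), Col1a2 (-0.19) and Col3a1 (-0.19), and Thbs2 (-0.30), none of them called. Of the 19, 12 had an unadjusted limma p under 0.05, against 10.2% of all genes. The list's median log2 fold change was 0.09, against 0.0038 over all genes.

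How many members passed depended on the setting. Mmp9 passed without the dimmest 30% of genes (limma adjusted p = 0.025), without the dimmest 50%, with an intensity trend and with array weights. Mmp19 and Mmp14 passed with either filter on dim genes and with a trend, Mmp14 as the lone lower call. Adamts9 passed without the dimmest 50% of genes and with a trend, and Adam8 passed with a trend (adjusted p = 0.029).

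**Figure D4:**
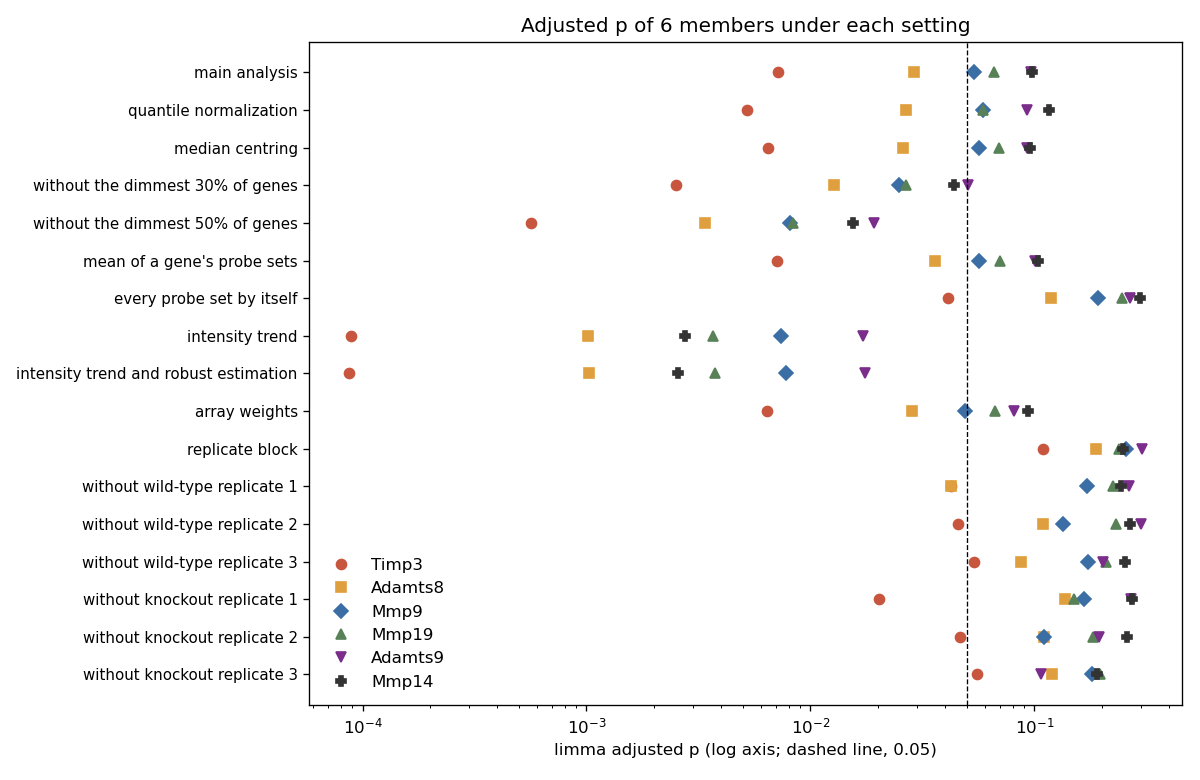
Limma adjusted p (x axis, log scale, dashed line at 0.05) of Timp3, Adamts8, Mmp9, Mmp19, Adamts9 and Mmp14 under the main analysis and each of 16 alternatives (y axis). Timp3 lies left of the line in 13 of the 16 alternatives and Adamts8 in 9, and the other 4 genes do so in 3 to 5 of them.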

How the data were processed

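Total RNA from 6 samples was biotin-labelled and measured on 6 one-colour arrays. The authors deposited 1 table of log2 values per probe set and array, made with Affymetrix Expression Console 1.4.1.46 per the submitters' processing notes. Background correction, normalization, summarisation and log base are all not given in the sources used here. Their maximum (12.4) led to reading them as log2. Array medians were nearly equal, and nothing further was normalized. The number of arrays limits the precision.

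Gene names came from the array platform's annotation table: 23521 had 1 symbol, 1814 had several (3 of these with a member's symbol, left out) and 16010 were not listed. All 77 members matched RefSeq by gene identifier. The files name no genome build, so gene coordinates are not given, and RefSeq GRCm38.p6 was used for names, gene order and promoter windows.

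Groups follow the titles. The genotypes were compared by limma 3.58.1, run in R 4.3.3 (no trend, no covariate, two-sided, Benjamini-Hochberg adjustment over 22180 genes, threshold 0.05), tested on simulated data first. Standard errors and intervals are limma's. Role and related lists are described by counts. Members and lists were chosen with earlier results of these data known. Named genes are Slk, called members, all TIMPs, Mmp2, Mmp9, Mmp13, Mmp14, Adam10, Adam17, Adamts1, and the 3 smallest p of each role list and related list. Genes named beyond these were chosen after their values were seen. Alternatives were quantile normalization, median centring, filters on dim genes, other uses of probe sets, trend, robust estimation, array weights, a replicate block and leaving out each array. The main analysis did not pair arrays by replicate number, and no label says whether the numbers mark pairs.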

Additional observations from a re-analysis of the deposited data

How the results depend on the processing

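The number of members called higher, 2 in the main analysis, was 4 without the dimmest 30% of genes, 5 without the dimmest 50%, 6 with an intensity trend and 6 with trend and robust estimation, 1 when every probe set was tested by itself, and 0 to 2 with 1 array left out. Members called lower went from 0 to 1 (Mmp14) with either filter on dim genes and with trend, robust or not. Over all genes the 72 higher and 25 lower became 143 and 63 without the dimmest 30%, 202 and 139 without the dimmest 50%, 265 and 176 with trend, 264 and 179 with trend and robust estimation, 25 and 4 over every probe set, and 13 to 24 and 2 to 5 with 1 array left out. The filters test fewer genes and the leave-out settings fewer arrays, while the trend settings use the same genes and arrays as the main analysis. Why the counts changed was not tested. The replicate block gave 0 members and 5 higher and 1 lower genes, with adjusted p of 0.11 for Timp3 and 0.19 for Adamts8. The deviations of same-numbered arrays correlated at 0.04, 0.02 and -0.07. No label states a pairing, and with 3 arrays per group these values cannot show whether the arrays were paired.

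Among the named genes, those that changed sign had values near 0. Adam10 gave 0.0039 with quantile normalization, and with 1 array left out the ranges were -0.025 to 0.0027 for Adam10, -0.016 to 0.075 for Adam17, -0.19 to 0.054 for Adam23, -0.16 to 0.022 for Adamts1, -0.16 to 0.066 for Adamts3, -0.097 to 0.074 for Mmp13, -0.012 to 0.0099 for Timp2 and -0.021 to 0.11 for Timp4. Quantile normalization, median centring, the mean of probe sets and array weights left Timp3 and Adamts8 past the threshold. Low signal limits what can be seen in the dim members.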
